A study of Arabidopsis thaliana with 12 samples.

Results

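A pair of Arabidopsis thaliana mutants was set directly against each other: gte4 (genotype gte4-/-) and eml1 eml2 (eml1-/-eml2-/-). All genes with a mean normalized count of at least 1 over the 12 libraries of the series were compared, which left 22315 of 32548 genes, measured in 3 gte4 and 3 eml1 eml2 libraries. The other 6 libraries are 3 of wild type and 3 of the triple mutant gte4-/-eml1-/-eml2-/-, which carries the mutations of both. They entered the fit through the estimate of the spread and are given beside the results. All plants were untreated and 20 days old. They had spent 12 days on Murashige and Skoog plates and the rest in soil under long days (16 h of light and 8 h of dark) at 22 °C, and the labels call the material seedlings. The labels give neither the alleles and the type of mutation behind these names, nor how many plants entered a library or whether the replicates are separate cultures, so the p-values cover only the spread among these libraries, which may be technical.

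GTE4 belongs to the bromodomain and extra-terminal proteins, whose bromodomain binds acetylated lysines of histones; in Arabidopsis GTE4 is known for keeping root meristem cells in the cell cycle. EML1 to EML4 are EMSY-like proteins with a Tudor-like domain of the kind that reads methylated histone H3, and EML1 and EML2 are known for a part in defence against downy mildew. The title of the series places both in a complex that recognizes histone acetylation and H3K4 trimethylation. The direct contrast therefore asks in which transcripts losing the bromodomain protein and losing the EML proteins differ.

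The deposited values are read counts that the authors normalized, so that the totals were nearly equal, 31990484 to 34322625 per library. They totalled 34169619, 34322625 and 34130465 in gte4 and 33106451, 32400824 and 33502158 in eml1 eml2. Across genes the log2 values of 2 gte4 libraries correlated at 0.986 to 0.989, those of 2 eml1 eml2 libraries at 0.985 to 0.987 and those of a library from each at 0.980 to 0.986. RBCS1A, a Rubisco gene of green tissue, stood at 542404, 519170 and 481534 in gte4 and at 469826, 466652 and 478694 in eml1 eml2. Of 16 root-enriched genes 5 did not reach the mean of 1, and RHD6, a regulator of root hair formation, was at the lower floor of the values, which stands for 0, in all 12 libraries. The other 11 reached it, among them PYK10 at 3207, 2774 and 2915 in gte4 and at 1928, 1787 and 1986 in eml1 eml2. Of 5 seed storage genes 1 reached the mean of 1. Differences below are given on the log2(value + 1) scale as gte4 minus eml1 eml2, and a gene is called where limma's moderated test over all 22315 genes gave a Benjamini-Hochberg adjusted p under 0.05. Each adjusted p in the text comes from this test, or from its repeat under another setting where the text names one.

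The mutated genes were checked first. GTE4 (AT1G06230) stood at 64.7, 99.2 and 61.0 normalized counts in the gte4 libraries and at 2197, 2134 and 2202 in the eml1 eml2 libraries, a log2 difference of -4.88 (SE 0.143, adjusted p = 1.21e-10). EML2 (AT5G06780) stood at 580.3, 597 and 521 in gte4 and at 117, 112 and 94.7 in eml1 eml2, a log2 difference of 2.38 (SE 0.114, adjusted p = 3.21e-09). Both genes were lower in the libraries whose label names them, and their groups lay far apart. EML1 (AT3G12140) stood at 907, 978 and 1015 in gte4 and at 1006, 913 and 907 in eml1 eml2. The groups overlapped, with a log2 difference of 0.04 (adjusted p = 0.773), so the count of this gene does not separate the genotypes and gave no check of the eml1 label. The relatives EML3 and EML4 differed by -0.11 (adjusted p = 0.173) and -0.26 (adjusted p = 0.171), and none of 10 other GTE or related bromodomain genes was called (2 were lower with the replicate block described next).

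The 2 mutants differed in many transcripts, mostly by little. Of the 22315 genes, 3019 (13.5%) were called, 1287 (5.77%) higher and 1732 (7.76%) lower in gte4, and at an unadjusted p under 0.05 there were 6385. The median size of a called difference was 0.34 on the log2 scale. A difference of at least 1 was found for 175 called genes, 70 higher and 105 lower. With every library scaled to the same total the call was 2963 genes, 787 higher and 2176 lower, so the split between directions depends on scaling while the count hardly does. With the replicate number as a block, a term that removes what libraries of the same number share, it was 4250. The count also rested on single libraries: it was 1165 without gte4 replicate 1, 875 without gte4 replicate 2, 3719 without gte4 replicate 3, 1485 without eml1 eml2 replicate 1, 1566 without its replicate 2 and 2002 without its replicate 3.

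Much of the contrast followed gene length. Among 16738 genes with a mean of at least 50 normalized counts, Spearman's rho across genes between exon length and the log2 difference was -0.475, a description over genes that share libraries. In the shortest of 5 classes of similar size (66 to 1242 exon bases) the median difference was 0.13, with 606 genes called higher and 49 lower in gte4. In the longest class (2669 to 16614 bases) the median was -0.17, with 36 called higher and 1012 lower. The 3 classes between them had medians of 0.05, 0.0020 and -0.05, so the median fell from each class to the next.

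The trend was measured in each library as the median deviation from the 12-library gene mean in the longest class less that in the shortest. It was -0.21, -0.26 and -0.06 in gte4 and 0.16, 0.11 and 0.11 in eml1 eml2. Wild type stood at -0.0013, -0.15 and -0.10, and the triple mutant at 0.09, 0.18 and 0.09. The gte4 and eml1 eml2 libraries did not overlap, gte4 overlapped wild type, and the triple mutant was above 0 like eml1 eml2, with replicates 1 and 3 just below its range and replicate 2 above it. Whether this trend arose in the plants or in making the libraries was not tested, and the main counts below are given as deposited and again with the trend removed.

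**Figure D1:**
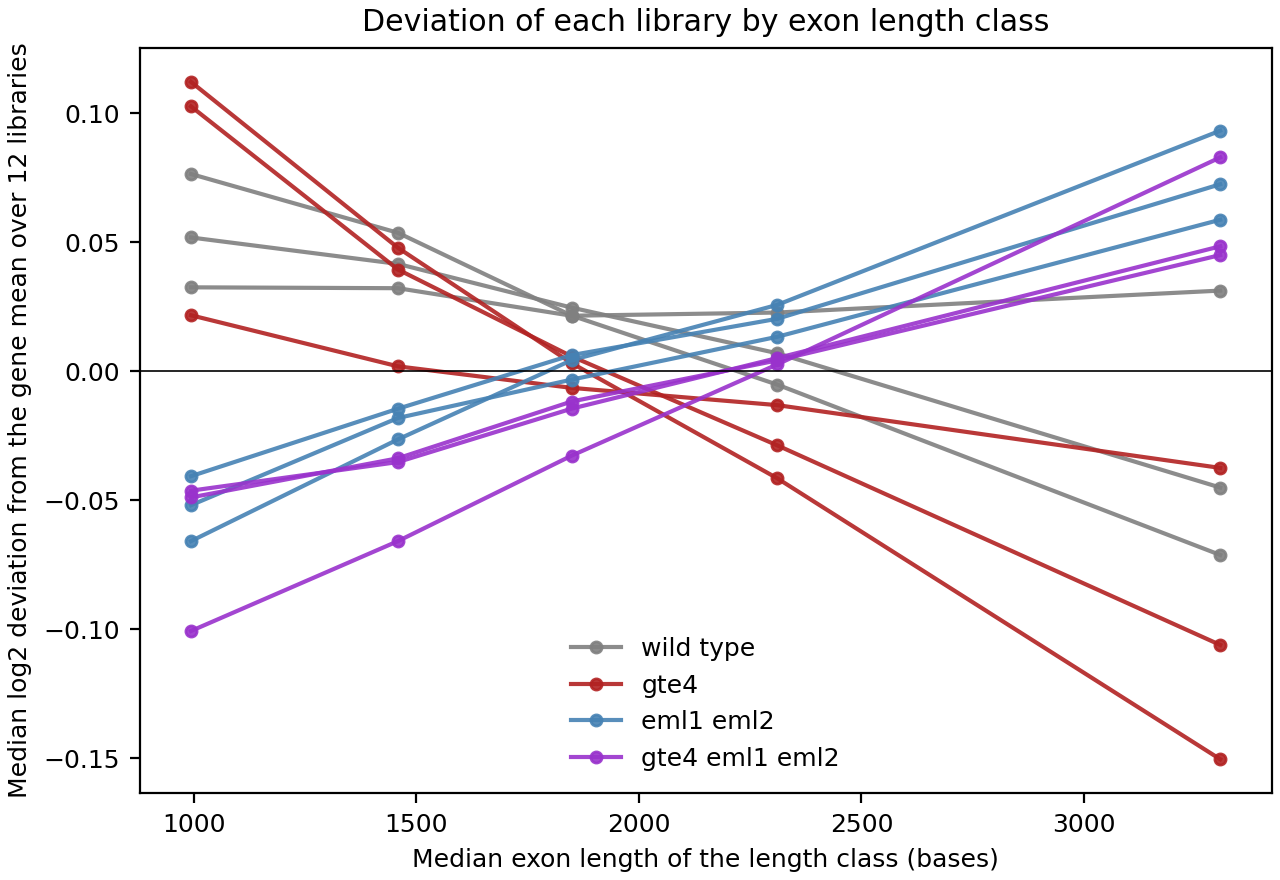
Median log2 deviation from the gene mean over 12 libraries (y axis) in 5 classes of exon length, placed at their median length in bases (x axis), with a line for each library. The 3 gte4 lines fall from short to long genes, the 3 eml1 eml2 lines rise, and the ends of the gte4 lines differ by -0.06 to -0.26.

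After a smooth trend on exon length was removed from each library, 1496 genes (6.70%) were called, 831 (3.72%) higher and 665 (2.98%) lower in gte4, with 5199 at an unadjusted p under 0.05. In the shortest class 143 genes were then called higher and 110 lower, and in the longest 221 and 161, while rho was 0.011. Called in both fits were 1160 genes, 575 higher and 585 lower, none with opposite signs; 1859 were called only as deposited and 336 only with the trend removed. With the replicate block as well, the count was 2884. Without the block it was 482, 298 and 1964 without gte4 replicates 1, 2 and 3, and 650, 523 and 829 without eml1 eml2 replicates 1, 2 and 3. A difference of at least 1 was then found for 108 called genes, 37 higher and 71 lower.

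**Figure D2:**
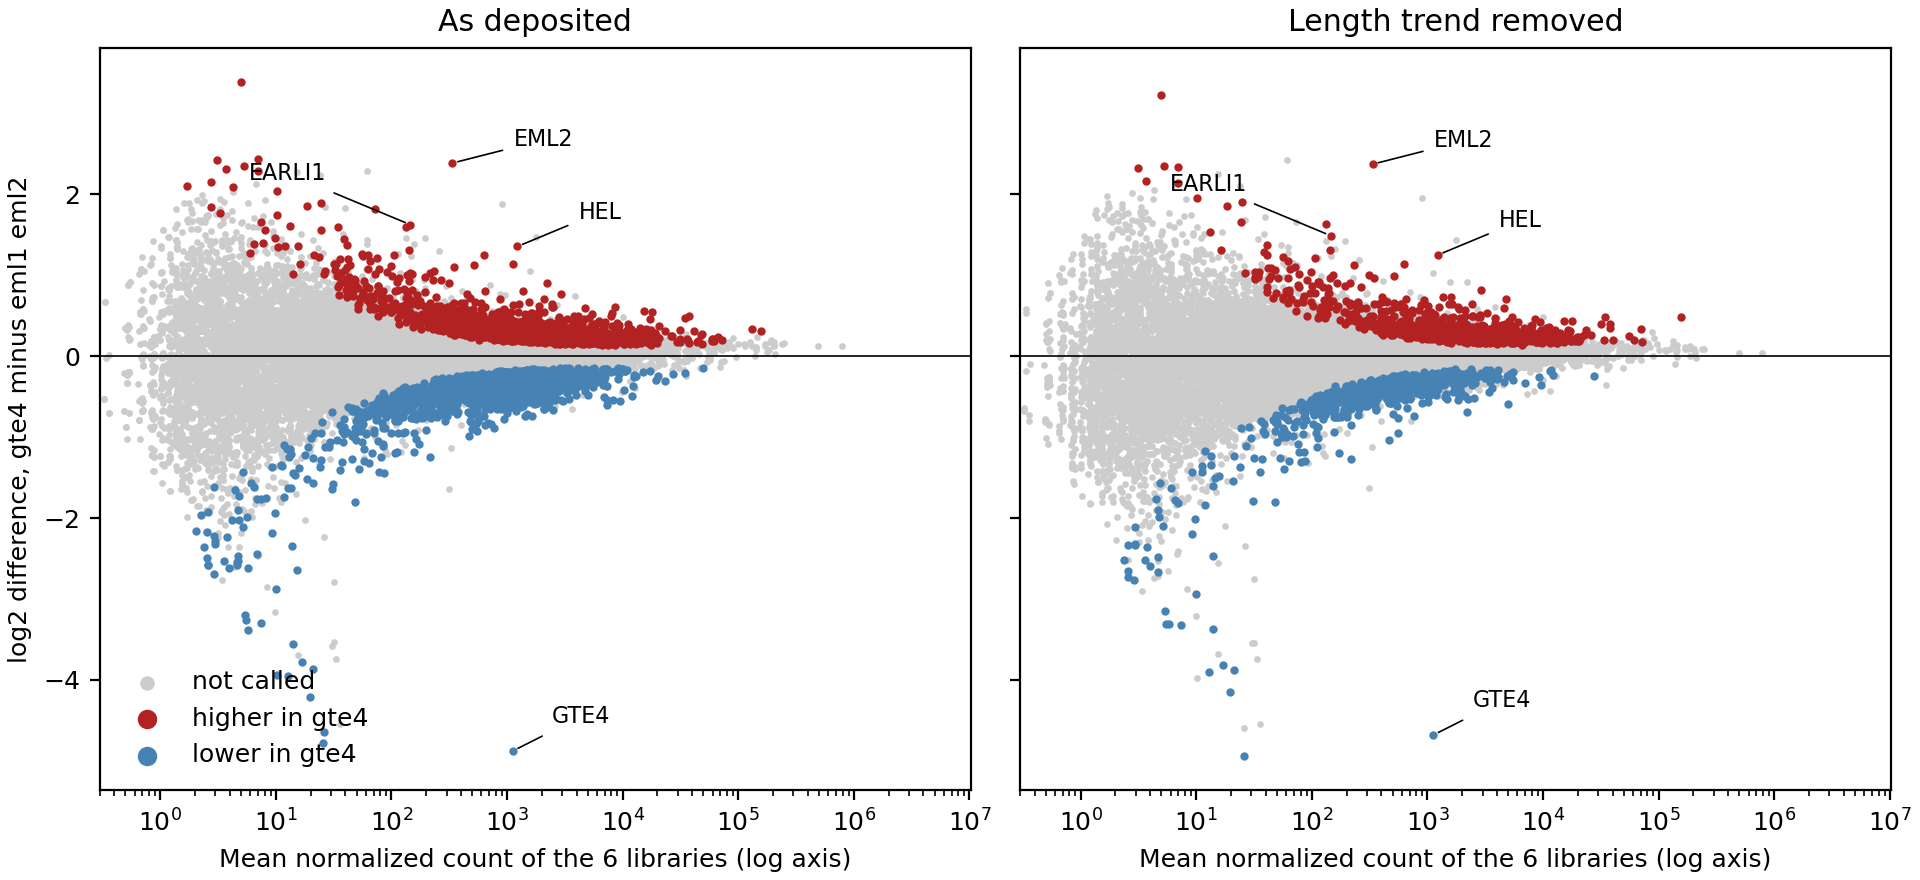
Log2 difference, gte4 minus eml1 eml2 (y axis), against the mean normalized count of the 6 libraries (x axis, log scale) for the 22315 genes tested, as deposited on the left and with the length trend removed on the right. Red points are called higher in gte4 (1287 and 831), blue points lower (1732 and 665), and most called points lie within 1 of zero.

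The genes with the largest differences each way were taken from those called in both fits whose 3 gte4 and 3 eml1 eml2 values do not overlap and whose higher group has a mean of at least 50. Without overlap stood 7470 of the 22315 genes (33.5%). Next to EML2, the higher end held genes of varied annotation. EARLI1 (AT4G12480), a proline-rich lipid-transfer-like protein of the cell wall, stood at 267, 241 and 157 in gte4 and at 57.2, 84.7 and 69.2 in eml1 eml2, a log2 difference of 1.62 (SE 0.195, adjusted p = 0.000367). Wild type lay with eml1 eml2 at 69.7, 73.5 and 53.2, and the triple mutant between at 148, 142 and 151. PNP-A (AT2G18660), a secreted natriuretic peptide, stood at 244, 181 and 178 in gte4 and at 71.8, 79.0 and 48.8 in eml1 eml2 (1.59, adjusted p = 0.00418). Here the triple mutant, at 71.5, 76.9 and 90.9, and wild type, at 93.0, 37.4 and 64.2, both lay with eml1 eml2, below every gte4 library.

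HEL (AT3G04720), the hevein-like chitin-binding protein also known as PR4, stood at 2143, 1954 and 1249 in gte4 and at 714, 668 and 654 in eml1 eml2, a log2 difference of 1.35 (SE 0.181, adjusted p = 0.00332). Its gte4 libraries were all above wild type (581, 720.0 and 543) and above the triple mutant (931, 960.4 and 856), with replicate 3 the lowest of them. CYP71A12 (AT2G30750), a cytochrome P450 of indolic defence compounds, stood at 199, 124 and 129.7 in gte4 and at 69.6, 63.6 and 51.9 in eml1 eml2 (1.25, adjusted p = 0.00535). LTP2 (AT2G38530), a lipid transfer protein, stood at 940.2, 1016 and 706 and at 435, 376 and 309 (1.24, adjusted p = 0.000632), with 749.5, 638 and 797 in the triple mutant and 368, 360.3 and 369.7 in wild type. CYP71A12 stood at 190.1, 129.8 and 91.4 in the triple mutant and at 73.4, 56.9 and 65.2 in wild type, so for both genes the triple mutant lay above eml1 eml2 and wild type.

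A transporter of the MATE efflux family (AT3G23550) stood at 209.5, 200.3 and 200.5 in gte4 and at 81.6, 67.2 and 97.3 in eml1 eml2 (1.32, adjusted p = 0.00709), and wild type lay below both at 27.4, 60.1 and 35.5. PCR2 (AT1G14870), known for zinc transport, stood at 54.9, 62.4 and 58.6 and at 23.65, 25.6 and 25.2 (1.21, adjusted p = 0.00445). AT1G26420, annotated as a FAD-binding Berberine family protein, stood at 49.7, 59.2 and 68.9 and at 33.0, 20.8 and 15.6 (1.37, adjusted p = 0.0129), a call lost without gte4 replicate 2 (adjusted p = 0.0599). The remaining members were AT5G38900, annotated as a Thioredoxin superfamily protein (1.25, adjusted p = 0.00643), and AT5G08240 (1.27, adjusted p = 0.00310) and AT1G65500 (1.44, adjusted p = 0.00283), both annotated as uncharacterized. For AT1G65500 eml1 eml2, at 23.5, 20.9 and 16.6, lay below wild type at 60.1, 51.2 and 43.5, which overlapped gte4 at 69.6, 51.4 and 50.2. For AT5G08240 too eml1 eml2, at 38.5, 27.4 and 31.9, lay below wild type at 44.7, 40.5 and 58.4, and gte4 lay above it at 82.7, 87.3 and 68.4.

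Next to GTE4, the lower end held genes of several kinds. AT5G56370, annotated as an F-box protein, stood at 19.4, 24.8 and 18.22 in gte4 and at 93.0, 60.5 and 72.5 in eml1 eml2, a log2 difference of -1.80 (SE 0.262, adjusted p = 0.00122). The triple mutant lay with gte4 at 21.6, 15.1 and 15.7, and wild type, at 66.7, 56.1 and 37.0, lay above those 2. AT5G08600, annotated as a U3 ribonucleoprotein (Utp) family protein, which places it with pre-ribosomal RNA processing, showed the same pattern, with 46.2, 43.4 and 48.6 in gte4, 140.4, 115 and 128 in eml1 eml2, next to 53.9, 56.0 and 48.2 for the triple mutant and 179.6, 133 and 131 in wild type (-1.45, SE 0.16, adjusted p = 0.000218). COW1 (AT4G34580), a phosphatidylinositol transfer protein needed for root hair growth, stood at 29.2, 32.1 and 48.0 in gte4, at 76.5, 99.8 and 96.4 in eml1 eml2, at 30.1, 34.5 and 42.8 in the triple mutant and at 103, 111 and 114 in wild type (-1.32, adjusted p = 0.00183). In these 3 genes both genotypes that carry gte4 were low and the libraries of the others did not overlap them. AT1G23935, annotated as an apoptosis inhibitory protein, was also lower in gte4, at 42.9, 42.0 and 37.4 against 108, 87.0 and 146 (-1.43, adjusted p = 0.000650), with the triple mutant between at 57.7, 63.1 and 70.0.

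Other genes of this end stood lower in wild type than in eml1 eml2. KCS15 (AT3G52160), a 3-ketoacyl-CoA synthase, stood at 22.5, 20.4 and 14.5 in gte4 and at 61.0, 56.1 and 39.9 in eml1 eml2 (-1.41, adjusted p = 0.0181), against 2.77, 0.946 and 2.70 in wild type and 15.3, 21.9 and 31.2 in the triple mutant. The call of KCS15 was lost without gte4 replicate 2 (adjusted p = 0.0613), eml1 eml2 replicate 1 (0.0750) or eml1 eml2 replicate 2 (0.0655), and 22.2% of its exon sequence is shared with an overlapping gene. MEE48 (AT4G14080), annotated as an O-Glycosyl hydrolases family 17 protein, stood at 167, 97.6 and 124 in gte4 and at 337, 265 and 307 in eml1 eml2 (-1.25, adjusted p = 0.0107; 0.0513 without gte4 replicate 2). Wild type, at 59.7, 116 and 114, overlapped gte4, and the triple mutant, at 313, 385 and 367, overlapped eml1 eml2. MEE48 had been entered in the anther list below as A6. It was left out there because the annotation did not carry that symbol.

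BGAL7 (AT5G20710), a beta-galactosidase, stood at 25.9, 37.1 and 21.8 in gte4 and at 63.6, 109.6 and 57.6 in eml1 eml2 (-1.39, adjusted p = 0.00641). VIIIB (AT4G27370), a class VIII myosin, stood at 32.5, 36.6 and 55.4 and at 108, 102 and 76.2 (-1.20, adjusted p = 0.00443). AT4G16857, annotated as a TIR-NBS-LRR disease resistance protein, stood at 36.8, 38.0 and 72.1 and at 126, 113 and 98.0 (-1.25, adjusted p = 0.00351), with 88.4, 91.6 and 85.8 in the triple mutant. Of the last pair, the uncharacterized AT5G22794 differed by -1.30 (adjusted p = 0.00653) and AT5G15430, annotated as a calmodulin-binding protein-like protein, by -1.31 (adjusted p = 0.0200). The call of AT5G15430 was lost without gte4 replicate 2 (0.0921), eml1 eml2 replicate 1 (0.0586) or eml1 eml2 replicate 3 (0.0600).

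**Figure D3:**
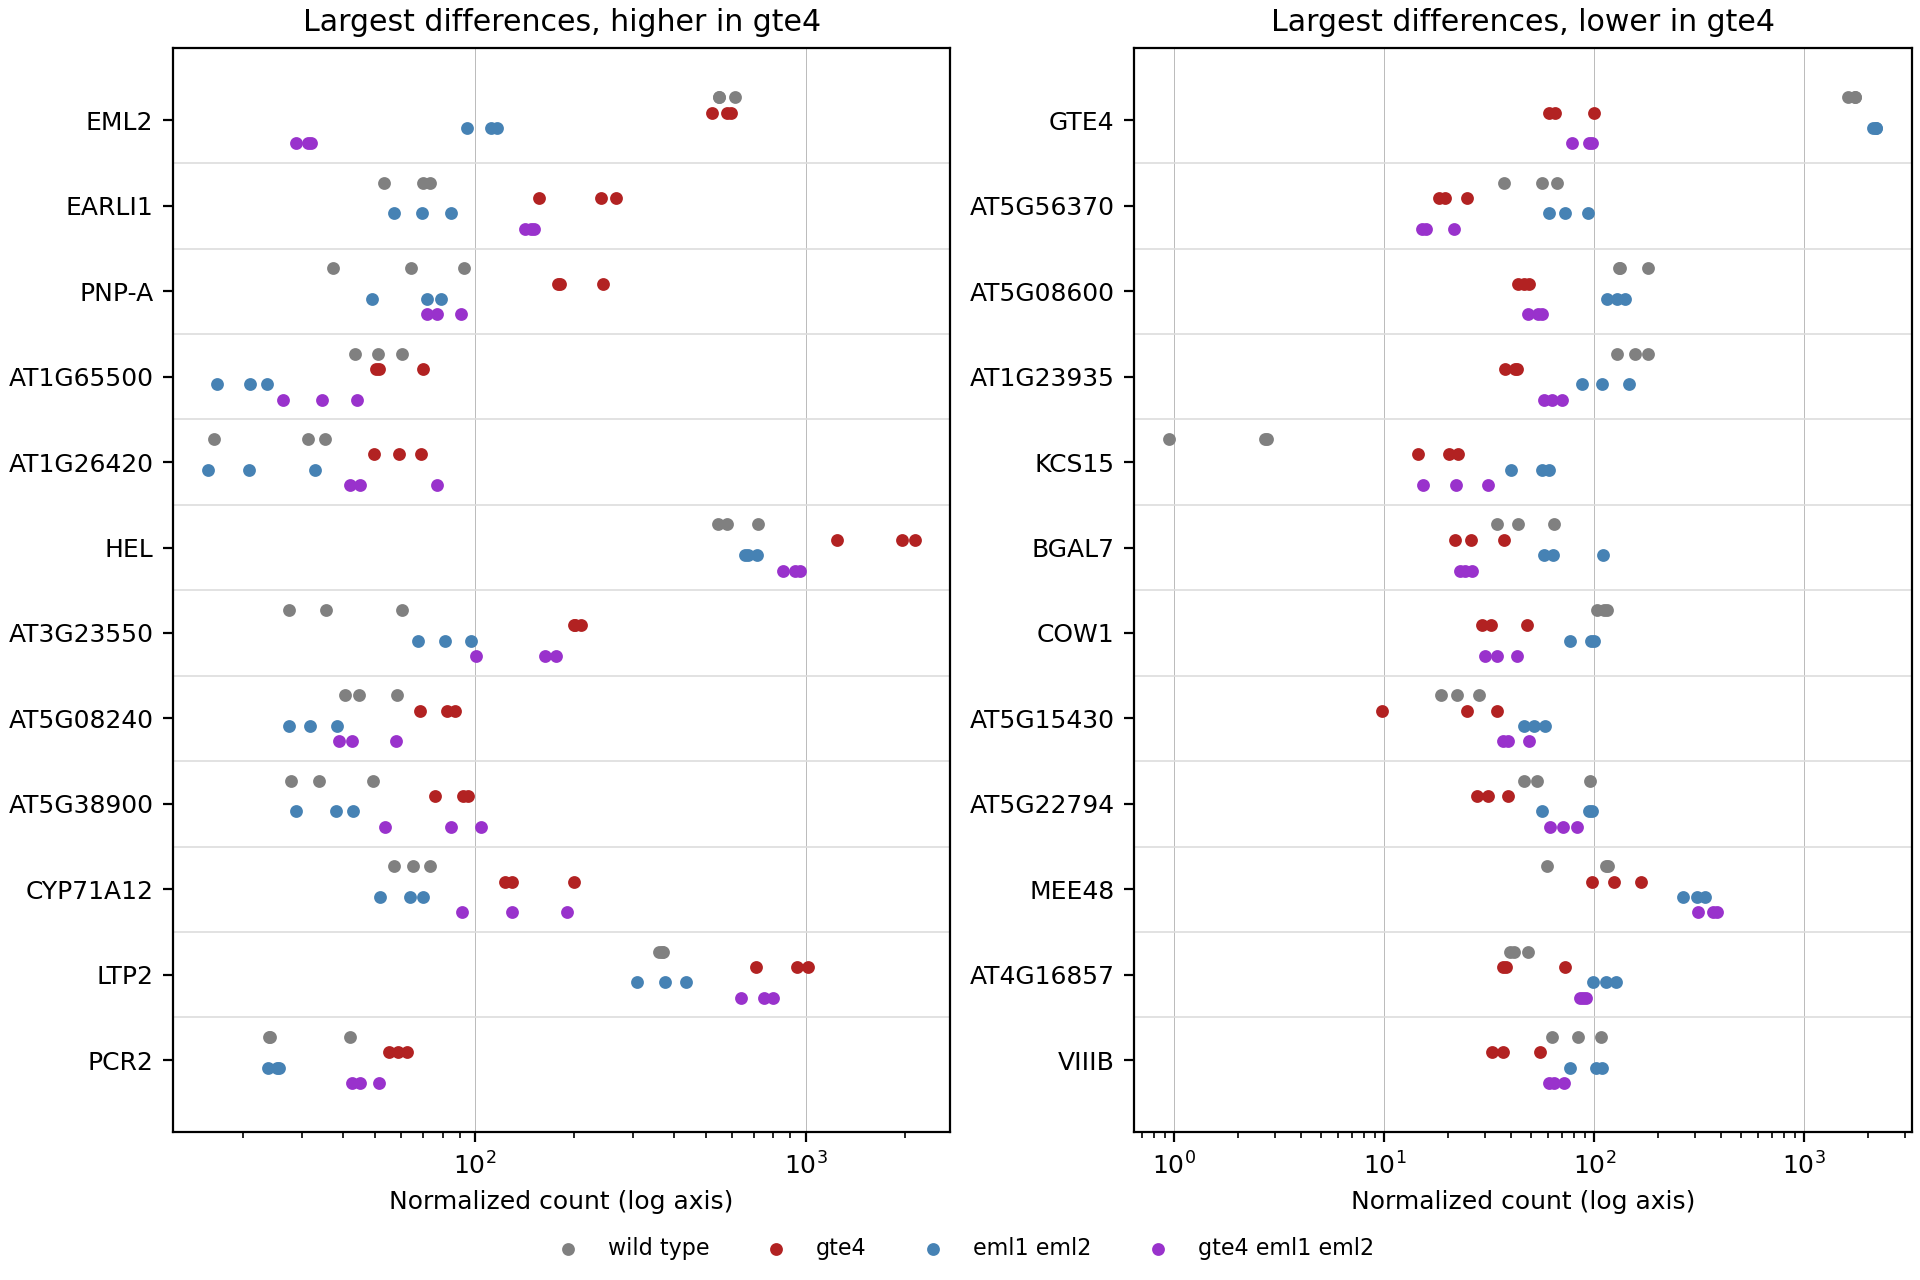
Normalized count (x axis, log scale) in each of the 12 libraries for the 12 genes with the largest differences each way, higher in gte4 on the left and lower on the right, with a point for each library coloured by genotype. By the rule that chose the genes, the red gte4 points and the blue eml1 eml2 points do not overlap in any row. The purple triple mutant points lie with gte4 in some rows (COW1, AT5G56370) and with eml1 eml2 in others (PNP-A, MEE48).

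Gene lists were then compared by the number of members called each way and the median difference, beside 5.77% higher, 7.76% lower and a median of -0.0089 over all genes as deposited, and 3.72%, 2.98% and 0.0026 with the length trend removed. Defence lists stood on the higher side. Of 27 tested genes of salicylic acid signalling and immunity, 7 were called higher and none lower, with a median of 0.35, and with the length trend removed 6 were higher, with a median of 0.36. The per-library median deviation of the list from the 12-library mean was 0.32, 0.23 and 0.43 in gte4, -0.02, -0.10 and -0.16 in eml1 eml2, -0.20, -0.28 and -0.02 in wild type and -0.15, 0.01 and -0.12 in the triple mutant. The gte4 libraries thus lay above the 9 others. The count fell to 1 without gte4 replicate 2, to 4 without gte4 replicate 1, to 3 without eml1 eml2 replicate 2 and to 4 without eml1 eml2 replicate 3.

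Within that list, SARD1 (AT1G73805), a transcription factor that activates salicylic acid synthesis, stood at 591, 603 and 637 in gte4 and at 429, 376 and 418 in eml1 eml2 (0.58, adjusted p = 0.0109; 0.0508 without gte4 replicate 2). EDS5 (AT4G39030), which exports the salicylic acid precursor from the plastid, stood at 290.3, 318 and 288 and at 257, 161 and 177 (0.62, adjusted p = 0.0154), and lost its call without gte4 replicate 1 (0.0510), gte4 replicate 2 (0.0800), eml1 eml2 replicate 2 (0.0773) or eml1 eml2 replicate 3 (0.0553). PR5 (AT1G75040), a thaumatin-like marker of this pathway, stood at 2261, 1458 and 978 and at 714, 860.5 and 492 (1.14, adjusted p = 0.0415), and its call was lost with the length trend removed (1.03, adjusted p = 0.0801, and 0.0283 with the block) and in 5 of the 6 fits that leave out a library, all but that without gte4 replicate 3. The other classical markers were not called, although their means were higher in gte4. PR1 stood at 3143, 1756 and 1497 in gte4 and at 959, 1348 and 716 in eml1 eml2 (1.05, adjusted p = 0.164), and PR2 at 3587, 2014 and 2020 and at 1222, 1345 and 412 (1.48, adjusted p = 0.0804, and 0.0408 with the replicate block).

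Of 27 tested jasmonate genes, 5 were called higher and none lower (median 0.30), and with the length trend removed 3 (median 0.31), or 7 with the replicate block as well. Next to HEL, whose transcript also answers to ethylene, the calls were biosynthetic enzymes and a repressor. AOC2 (AT3G25770), an allene oxide cyclase, stood at 3369, 3500 and 2985 in gte4 and at 2669, 2418 and 2464 in eml1 eml2 (0.38, adjusted p = 0.00745), while wild type stood at 3856, 4707 and 4073. AOS and OPR3, which act before and after it in the pathway, differed by 0.37 (adjusted p = 0.0420) and 0.35 (adjusted p = 0.0359), and with the length trend removed by 0.40 (0.0608) and 0.34 (0.0646). The storage protein genes VSP1 and VSP2, common readouts of the hormone, were not called (-0.11 and 0.05, adjusted p = 0.589 and 0.769), nor was the defensin PDF1.2 (1.43, adjusted p = 0.447). The 5 calls fell to 2 without gte4 replicate 1, without gte4 replicate 2, without eml1 eml2 replicate 2 and without eml1 eml2 replicate 3.

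A neighbouring set, lipid transfer proteins with the EARLI1 family, held the highest share of higher calls among the lists as deposited. Of 9 tested genes 6 were higher and none lower (median 0.50), and 4 to 6 were higher with each library left out. With the length trend removed 4 were higher and LTP6 was lower (median 0.36). LTP5 (AT3G51600) stood at 9000, 10734 and 8252 in gte4 and at 6301, 6394 and 7000 in eml1 eml2 (0.50, adjusted p = 0.00310), with wild type at 7687, 8467 and 8119. AZI1 (AT4G12470), a signal protein of systemic defence priming that neighbours EARLI1, stood at 232, 193 and 204 and at 93.9, 131 and 154 (0.75, adjusted p = 0.0364; 0.0900 with the length trend removed). These genes are short and some resemble each other closely, so reads may have been split between copies. SAG21 (AT4G02380), a late embryogenesis abundant-like protein induced in senescence and oxidative stress, stood at 277, 352 and 235 in gte4 and 154, 111 and 156 in eml1 eml2 (1.03, adjusted p = 0.00279). It was the 1 gene called among 11 senescence genes, a share near the 5.77% of all genes called higher.

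Genes that answer within minutes to touch and handling were followed because several defence genes do too. None of 13 was called, with a median of 0.34. Their per-library median was -0.60, 0.26 and 0.98 in gte4 replicates 1 to 3 and -0.79, -0.08 and 0.38 in eml1 eml2 replicates 1 to 3, beside -0.77, -0.27 and 0.0056 in the triple mutant and -0.73, 0.45 and 1.103 in wild type. Replicate 1 was the lowest and replicate 3 the highest library of every genotype, and gte4 lay above eml1 eml2 at each number. With the replicate block 2 of the 13 were called higher. The part of this spread in the defence results was not tested.

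The immune receptors of the NLR class did not share the direction of the other defence lists. As deposited 5 of 17 tested were lower and none higher (median -0.19), but with the length trend removed 2 were lower and 2 higher (median 0.06); with the replicate block these were 8 lower, and 2 lower and 4 higher. The count as deposited rose to 10 without gte4 replicate 3 and fell to 3 without each of gte4 replicate 1, gte4 replicate 2, eml1 eml2 replicate 1 and eml1 eml2 replicate 3. Lower in both fits were RPM1 (AT3G07040), a receptor for bacterial effectors, at 344, 349.9 and 492 in gte4 and 574, 563 and 608 in eml1 eml2 (-0.58, adjusted p = 0.00505; -0.37 and 0.0282 with the length trend removed), and RPP4 (AT4G16860), a downy mildew receptor, at 3165, 3152 and 3649 and 5056, 4423 and 4405 (-0.48, adjusted p = 0.00567; -0.26 and 0.0205). RPP4 lies in a cluster of near-identical genes, so its value is uncertain. Higher with the length trend removed were the helper receptors ADR1 (0.36, adjusted p = 0.0371) and ADR1-L1 (0.34, adjusted p = 0.0191), neither of them called as deposited.

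Ribosomal protein genes, which are short, were on the higher side as deposited. Of 16 tested small-subunit (40S) genes 10 were higher and none lower (median 0.19), and of 22 large-subunit (60S) genes 8 were higher and none lower (median 0.13). With the length trend removed, 3 and 0 were called higher, with medians of 0.09 and 0.03; with the block as well 1 of the 60S genes was higher and 1 lower. The 3 were RPS15A, RPS21B and RPS10B, all structural proteins of the small subunit. RPS15A stood at 3318, 3526 and 3038 in gte4 and at 2645, 2588 and 2536 in eml1 eml2. As deposited the 3 genes differed by 0.34 (adjusted p = 0.00529), 0.33 (0.00367) and 0.30 (0.00426), in that order. With the length trend removed they differed by 0.33 (adjusted p = 0.00796), 0.17 (0.0428) and 0.17 (0.0380). The 60S count as deposited fell to 0 without gte4 replicate 2 and 2 without gte4 replicate 1, and to 3 without eml1 eml2 replicate 1 or its replicate 2 and 5 without its replicate 3; the 40S count fell to 5 without either of gte4 replicates 1 and 2. Near-identical ribosomal paralogs could share reads.

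Anther and pollen genes were lower in gte4 than in eml1 eml2. Of 22 tested genes of the anther, pollen coat and pollen wall, 7 were called lower and none higher, with a median of -0.78, and all 22 differences were negative. With the length trend removed 4 were lower (median -0.92), or 7 with the replicate block as well. The per-library median was 0.16, -0.28 and -0.18 in gte4 and 0.56, 0.99 and 0.50 in eml1 eml2, against -1.41, -0.92 and -0.47 in wild type and 0.14, 0.52 and 0.59 in the triple mutant. Wild type was thus lowest and eml1 eml2 highest, with gte4 between and the triple mutant overlapping both mutants. The count fell to 3 without gte4 replicate 2, to 4 without gte4 replicate 3, to 2 without eml1 eml2 replicate 1, to 2 without its replicate 2 and to 4 without its replicate 3.

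Among these, LAP5 (AT4G34850), a polyketide synthase of pollen wall sporopollenin, stood at 58.9, 41.3 and 47.5 in gte4 and at 110.4, 108 and 89.2 in eml1 eml2 (-1.05, SE 0.203, adjusted p = 0.00475). CYP704B1 (AT1G69500), a fatty acid hydroxylase of the same pathway, stood at 47.1, 44.2 and 31.8 and at 93.1, 81.7 and 66.2 (-0.96, adjusted p = 0.0122; 0.0568 without eml1 eml2 replicate 1). In both genes gte4 overlapped wild type, which stood at 30.4, 40.6 and 51.3 for LAP5 and at 33.5, 32.8 and 35.8 for CYP704B1. The late pollen coat oleosins differed more and varied more across the 12 libraries. GRP17 stood at 179, 132 and 137 in gte4 and at 437, 657 and 350.0 in eml1 eml2 (-1.64, adjusted p = 0.454), without overlap. In wild type it stood at 0.460, 0 and 46.4. The test takes its spread from all 12 libraries, so the wild type values enter this adjusted p. These transcripts come from few cells of the anther, and fewer such cells cannot be told apart from less RNA in each, here as for every list.

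Among the floral organ genes 1 of 13 tested was called, a share near the 7.76% of all genes called lower, and 2 with the replicate block. All 13 differences were negative, with a median of -0.51. SEP1 (AT5G15800), a MADS-box factor of all floral organs, was the gene called. It stood at 102, 133 and 150.5 in gte4, at 202, 229 and 199 in eml1 eml2 and at 104, 140.2 and 143 in wild type (-0.72, adjusted p = 0.0117), and lost its call without gte4 replicate 1 (0.0656) or eml1 eml2 replicate 2 (0.0525); 35.8% of its exon sequence is shared with an overlapping gene. Of 14 genes that promote flowering 3 were called lower as deposited and SPL4 (-0.31, adjusted p = 0.0215) also with the length trend removed, where the replicate block gave 3. The count of 3 was 0 without gte4 replicate 2, eml1 eml2 replicate 2 or eml1 eml2 replicate 3, and 1 without gte4 replicate 1 or gte4 replicate 3. The central integrators were not called: FT differed by 0.31 (adjusted p = 0.633) and SOC1 by -0.10 (adjusted p = 0.228). Of 16 floral repressors 1 was higher and 1 lower as deposited, and 4 higher and 1 lower with the replicate block. SVP (AT2G22540), a MADS-box repressor, was higher in gte4 in both fits, at 3195, 3233 and 2850 against 2469, 2649 and 2401 (0.30, adjusted p = 0.00514), MAF2, a relative of FLC, was lower (-0.31, adjusted p = 0.0173; -0.13 and 0.239 with the length trend removed), and FLC was not called (0.31, adjusted p = 0.746).

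Genes of mitosis and cytokinesis were lower in gte4 than in eml1 eml2, and the count was the same with the length trend removed. Of 21 tested, 9 were called lower and none higher in either fit, with medians of -0.24 and -0.26. The per-library median was -0.07, -0.06 and -0.00068 in gte4 and 0.15, 0.27 and 0.20 in eml1 eml2, against -0.24, -0.39 and -0.24 in wild type and 0.12, 0.26 and 0.19 in the triple mutant. As for the anther genes, wild type was lowest, and here the triple mutant overlapped eml1 eml2 and lay above gte4. The count was 5 without gte4 replicate 1, 5 without gte4 replicate 2, 9 without gte4 replicate 3, and 7, 6 and 7 without eml1 eml2 replicates 1, 2 and 3. With the length trend removed it rested more on single libraries, with 2 without gte4 replicate 1, 1 without gte4 replicate 2, 9 without gte4 replicate 3 and 4 without each of the eml1 eml2 replicates.

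HINKEL (AT1G18370), a kinesin of the cell plate, stood at 935, 937 and 1048 in gte4, at 1629, 1375 and 1411 in eml1 eml2 and at 814, 595 and 624 in wild type (-0.59, SE 0.109, adjusted p = 0.00514; -0.41 with the length trend removed). TPX2 (AT1G03780), a spindle assembly factor, stood at 471, 503 and 576 in gte4, at 732, 707 and 744 in eml1 eml2 and at 410.2, 358 and 396 in wild type (-0.50, adjusted p = 0.00393). CYCB2;4 (AT1G76310), a mitotic cyclin, stood at 325, 312 and 360.1 in gte4, at 460.5, 460.3 and 479 in eml1 eml2 and at 305, 223 and 287 in wild type (-0.49, adjusted p = 0.00845; 0.0513 without gte4 replicate 2). In all 3 genes gte4 lay above wild type by its mean and eml1 eml2 higher still. The S phase genes were called less often once length was removed, 5 of 13 lower as deposited (median -0.18) and 2 with the trend removed (median -0.09). MCM2 (AT1G44900), a subunit of the replicative helicase, was lower in both fits, at 1131, 1023 and 1247 in gte4 and 1572, 1480 and 1461 in eml1 eml2. Its difference was -0.41 (adjusted p = 0.00959, and 0.0590 without gte4 replicate 2), or -0.25 (0.0433) with the length trend removed. PCNA1, the sliding clamp, differed by 0.02 (adjusted p = 0.919). The 5 calls ran from 1 without gte4 replicate 2 to 7 without gte4 replicate 3, with 3 without gte4 replicate 1 and 2, 3 and 4 without eml1 eml2 replicates 1, 2 and 3.

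Genes of the DNA damage response are long on the whole, and 6 of 12 tested were lower as deposited (median -0.37) against 2 with the length trend removed (median -0.26), or 4 with the replicate block as well. The 2 are the kinases that sense DNA damage. ATR (AT5G40820) stood at 73.0, 59.5 and 69.6 in gte4, at 144, 122 and 127 in eml1 eml2 and at 244, 206 and 212 in wild type (-0.95, adjusted p = 0.00102; -0.54 and 0.0209 with the trend removed). ATM (AT3G48190) stood at 468, 486 and 530.3 in gte4, at 1006, 777 and 866 in eml1 eml2 and at 1056, 782 and 808 in wild type (-0.83, adjusted p = 0.00138; -0.41 and 0.00595). Both shrank with the length correction, and their exon lengths of 9295 and 9734 bases lie near the upper end of the range. The count of 6 fell to 2 without gte4 replicate 2 and to 4 without each of the others except gte4 replicate 3.

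Genes of RNA-directed DNA methylation, the pathway in which small RNAs guide DNA methylation, were lower in gte4. Of 16 tested 8 were called lower and none higher as deposited (median -0.32), and 4 with the length trend removed (median -0.14), or 6 lower and 1 higher with the block as well; 5 to 9 were lower with each library left out, with the 5 without gte4 replicate 1, gte4 replicate 2 or eml1 eml2 replicate 2. FDM2 (AT4G00380), a protein of this pathway that binds double-stranded RNA, stood at 71.9, 66.1 and 64.9 in gte4, at 169, 168 and 130.0 in eml1 eml2, at 78.3, 84.8 and 91.0 in the triple mutant and at 392, 311 and 338 in wild type (-1.18, SE 0.138, adjusted p = 0.000283; -1.12 with the trend removed). All 3 mutants were below wild type for FDM2, and eml1 eml2 least so. CLSY1 (AT3G42670), the chromatin remodeller that helps recruit RNA polymerase IV, stood at 461, 400.0 and 501 in gte4, at 810.2, 744 and 723 in eml1 eml2 and at 562, 452 and 556 in wild type (-0.74, adjusted p = 0.000632; -0.51 with the trend removed). For CLSY1 the wild type libraries lay nearer gte4. DCL3, which cuts the small RNAs, differed by -0.62 (adjusted p = 0.00310; -0.34 and 0.0479), while AGO4, which binds them, and the methyltransferase DRM2 were not called (-0.10 and -0.08, adjusted p = 0.240 and 0.640).

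Among the other chromatin regulators the count depended on length. As deposited 14 of 29 tested were lower and 1 higher (median -0.25); with the length trend removed 1 was lower and 1 higher (median -0.05), or 4 lower and 1 higher with the replicate block as well. BRM (AT2G46020), an ATPase of SWI/SNF remodellers, stood at 2741, 2570 and 3098 in gte4 and at 3950, 3634 and 3761 in eml1 eml2, a difference of -0.44 (adjusted p = 0.00450) that became -0.06 (adjusted p = 0.412). Its relative SYD (AT2G28290) went from -0.43 (adjusted p = 0.0171) to 0.02 (adjusted p = 0.859). PIE1 and ATXR7, a remodeller ATPase and a histone H3K4 methyltransferase, also lost their calls, at -0.23 (adjusted p = 0.0582) and -0.26 (0.0908) after -0.58 (0.0154) and -0.55 (0.0109), and passed with the replicate block in the same fit (0.0297 and 0.0358). The genes that passed with the trend removed were the Polycomb gene VRN2, lower (-0.25, adjusted p = 0.0479), and the histone deacetylase gene HDA19, higher (0.19, adjusted p = 0.0336). The count of 14 was 4 without gte4 replicate 1 and 4 without gte4 replicate 2, and 8 without eml1 eml2 replicate 1.

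Counts with the length trend removed rested on single libraries in the other lists too. Without gte4 replicate 1, gte4 replicate 2, eml1 eml2 replicate 1, its replicate 2 and its replicate 3, in that order, the lower anther genes were 5, 2, 2, 2 and 4, the lower genes of RNA-directed DNA methylation 2, 2, 2, 2 and 3, and those of the DNA damage response 2, 1, 1, 1 and 2. The higher immunity genes were 5, 2, 6, 4 and 5, the higher jasmonate genes 1, 1, 5, 1 and 1, the higher lipid transfer genes 4, 3, 4, 3 and 3, and the higher 40S genes 1, 0, 1, 1 and 1. None of the S phase and chromatin genes was called in these 5 fits. Without gte4 replicate 3 the 7 counts were 3, 4, 3, 6, 4, 4 and 3.

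**Figure D4:**
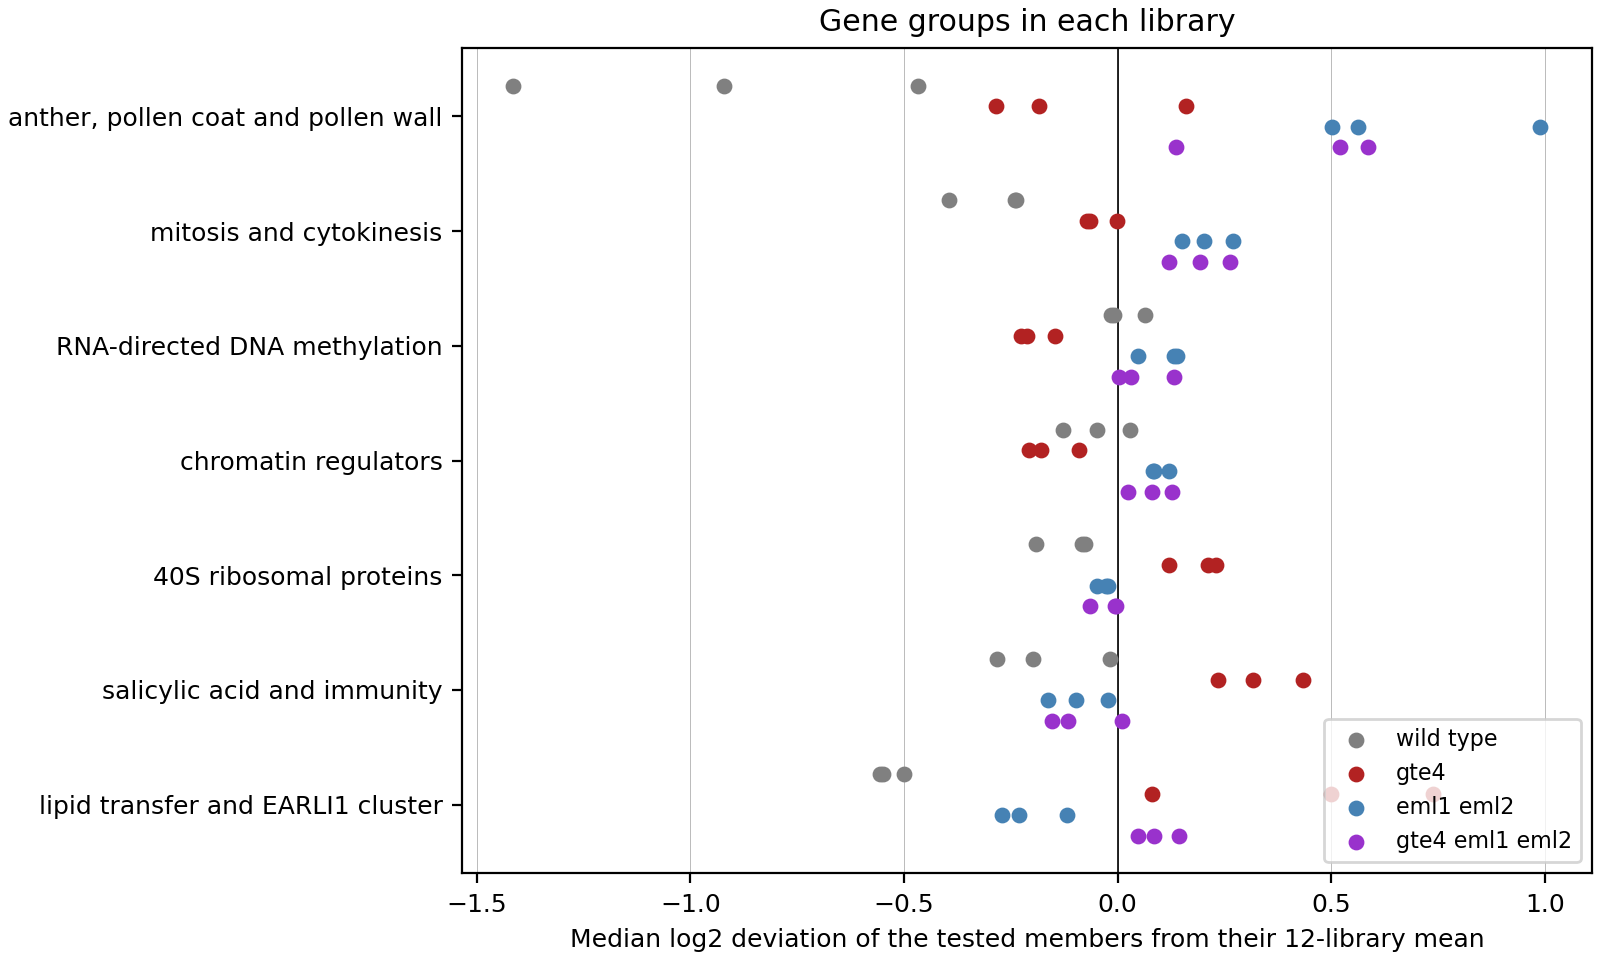
Median log2 deviation of the tested members of 7 gene lists from their 12-library mean (x axis, as deposited), with a point for each library coloured by genotype. In each list shown the red gte4 points and the blue eml1 eml2 points do not overlap. The lists were picked from 38. Among those not shown, the 60S, clock, floral promoter, floral repressor, floral organ and S phase lists did not overlap either. Neither did the DNA damage, jasmonate, indole, light-harvesting, root-enriched and reference lists. The rest of the 38 lists overlapped, the NLR and touch lists among them. Wild type lies below both mutants for anther, mitosis, 40S and lipid transfer genes.

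The root-enriched list was split, with 2 of 11 tested genes higher and COW1, given above, lower (median 0.01), and after the length correction 3 were higher and COW1 lower. PYK10 (AT3G09260), the main beta-glucosidase of ER bodies, stood at 3207, 2774 and 2915 in gte4, 1928, 1787 and 1986 in eml1 eml2, next to 2939, 2922 and 3117 for the triple mutant and 2033, 1406 and 1787 in wild type (0.64, adjusted p = 0.00441). Its binding partner PBP1 (AT3G16420) stood at 2244, 2228 and 2339 in gte4, at 1488, 1369 and 1583 in eml1 eml2, at 2281, 2209 and 2400 in the triple mutant and at 1378, 1268 and 1312 in wild type (0.62, SE 0.0601, adjusted p = 7.22e-05). For this pair the triple mutant overlapped gte4, and both lay above every library of eml1 eml2 and wild type, while the root patterning genes SCR and SHR were not called (0.01 and -0.01, adjusted p = 0.924 and 0.965). In the circadian clock ELF3 (AT2G25930), a part of the evening complex, was lower in gte4 in both fits, at 1486, 1542 and 1781 against 2088, 1954 and 1927 (-0.32, adjusted p = 0.00565). PRR3 was lower in both fits too (-0.40, adjusted p = 0.00862, and 0.0560 without gte4 replicate 2). With the length trend removed ELF3 differed by -0.20 (adjusted p = 0.0407) and PRR3 by -0.28 (0.0325). As deposited 3 of 21 clock genes were called in all, 1 without gte4 replicate 2, and 7 with the replicate block (1 higher and 6 lower).

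The remaining lists held few calls, beside 5.77% of all genes called higher and 7.76% lower as deposited. Of 22 cold, drought and abscisic acid genes 1 was higher and 2 were lower, and COR15A, a chloroplast protein of cold tolerance, differed by 0.05 (adjusted p = 0.633). CHS, the entry enzyme of flavonoid synthesis, was the call among 15 flavonoid genes (0.49, adjusted p = 0.0131; 0.0581 and 0.0683 without gte4 replicates 1 and 2). CYP81F2, an enzyme of indole glucosinolate modification, was the call among 10 indole genes (0.78, adjusted p = 0.0358; 0.77 and 0.0504 with the length trend removed, and 0.0113 with the block as well). With the block 5 of the 10 indole genes were higher, and 6 with the length trend removed as well. No member was called as deposited among 16 aliphatic glucosinolate, 21 light-harvesting and Rubisco, 16 photomorphogenesis and auxin, 10 trichome, 9 gibberellin and 9 heat shock genes, where a miss does not show equal levels; with the replicate block 3 aliphatic genes were higher. The cuticular wax genes CER5 and CER6 were higher as deposited (0.21 and 0.22) and not called with equal totals, and the iron, phosphate, expansin and splicing lists each held at most 2 calls, and these with the wax list up to 4 with the replicate block. With a library left out, the lists of this paragraph up to here held 0 to 3 calls each. Of 9 genes often used as references 3 were called higher, UBC9 (0.25, adjusted p = 0.00569), UBC21 (0.23, 0.0247) and GAPC1 (0.22, 0.0154), with 5 called under the replicate block and 1 without gte4 replicate 1 or without gte4 replicate 2. The reference list had a median of 0.17, and 0.13 with the length trend removed. As deposited 8 of its 9 differences were positive.

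**Figure D5:**
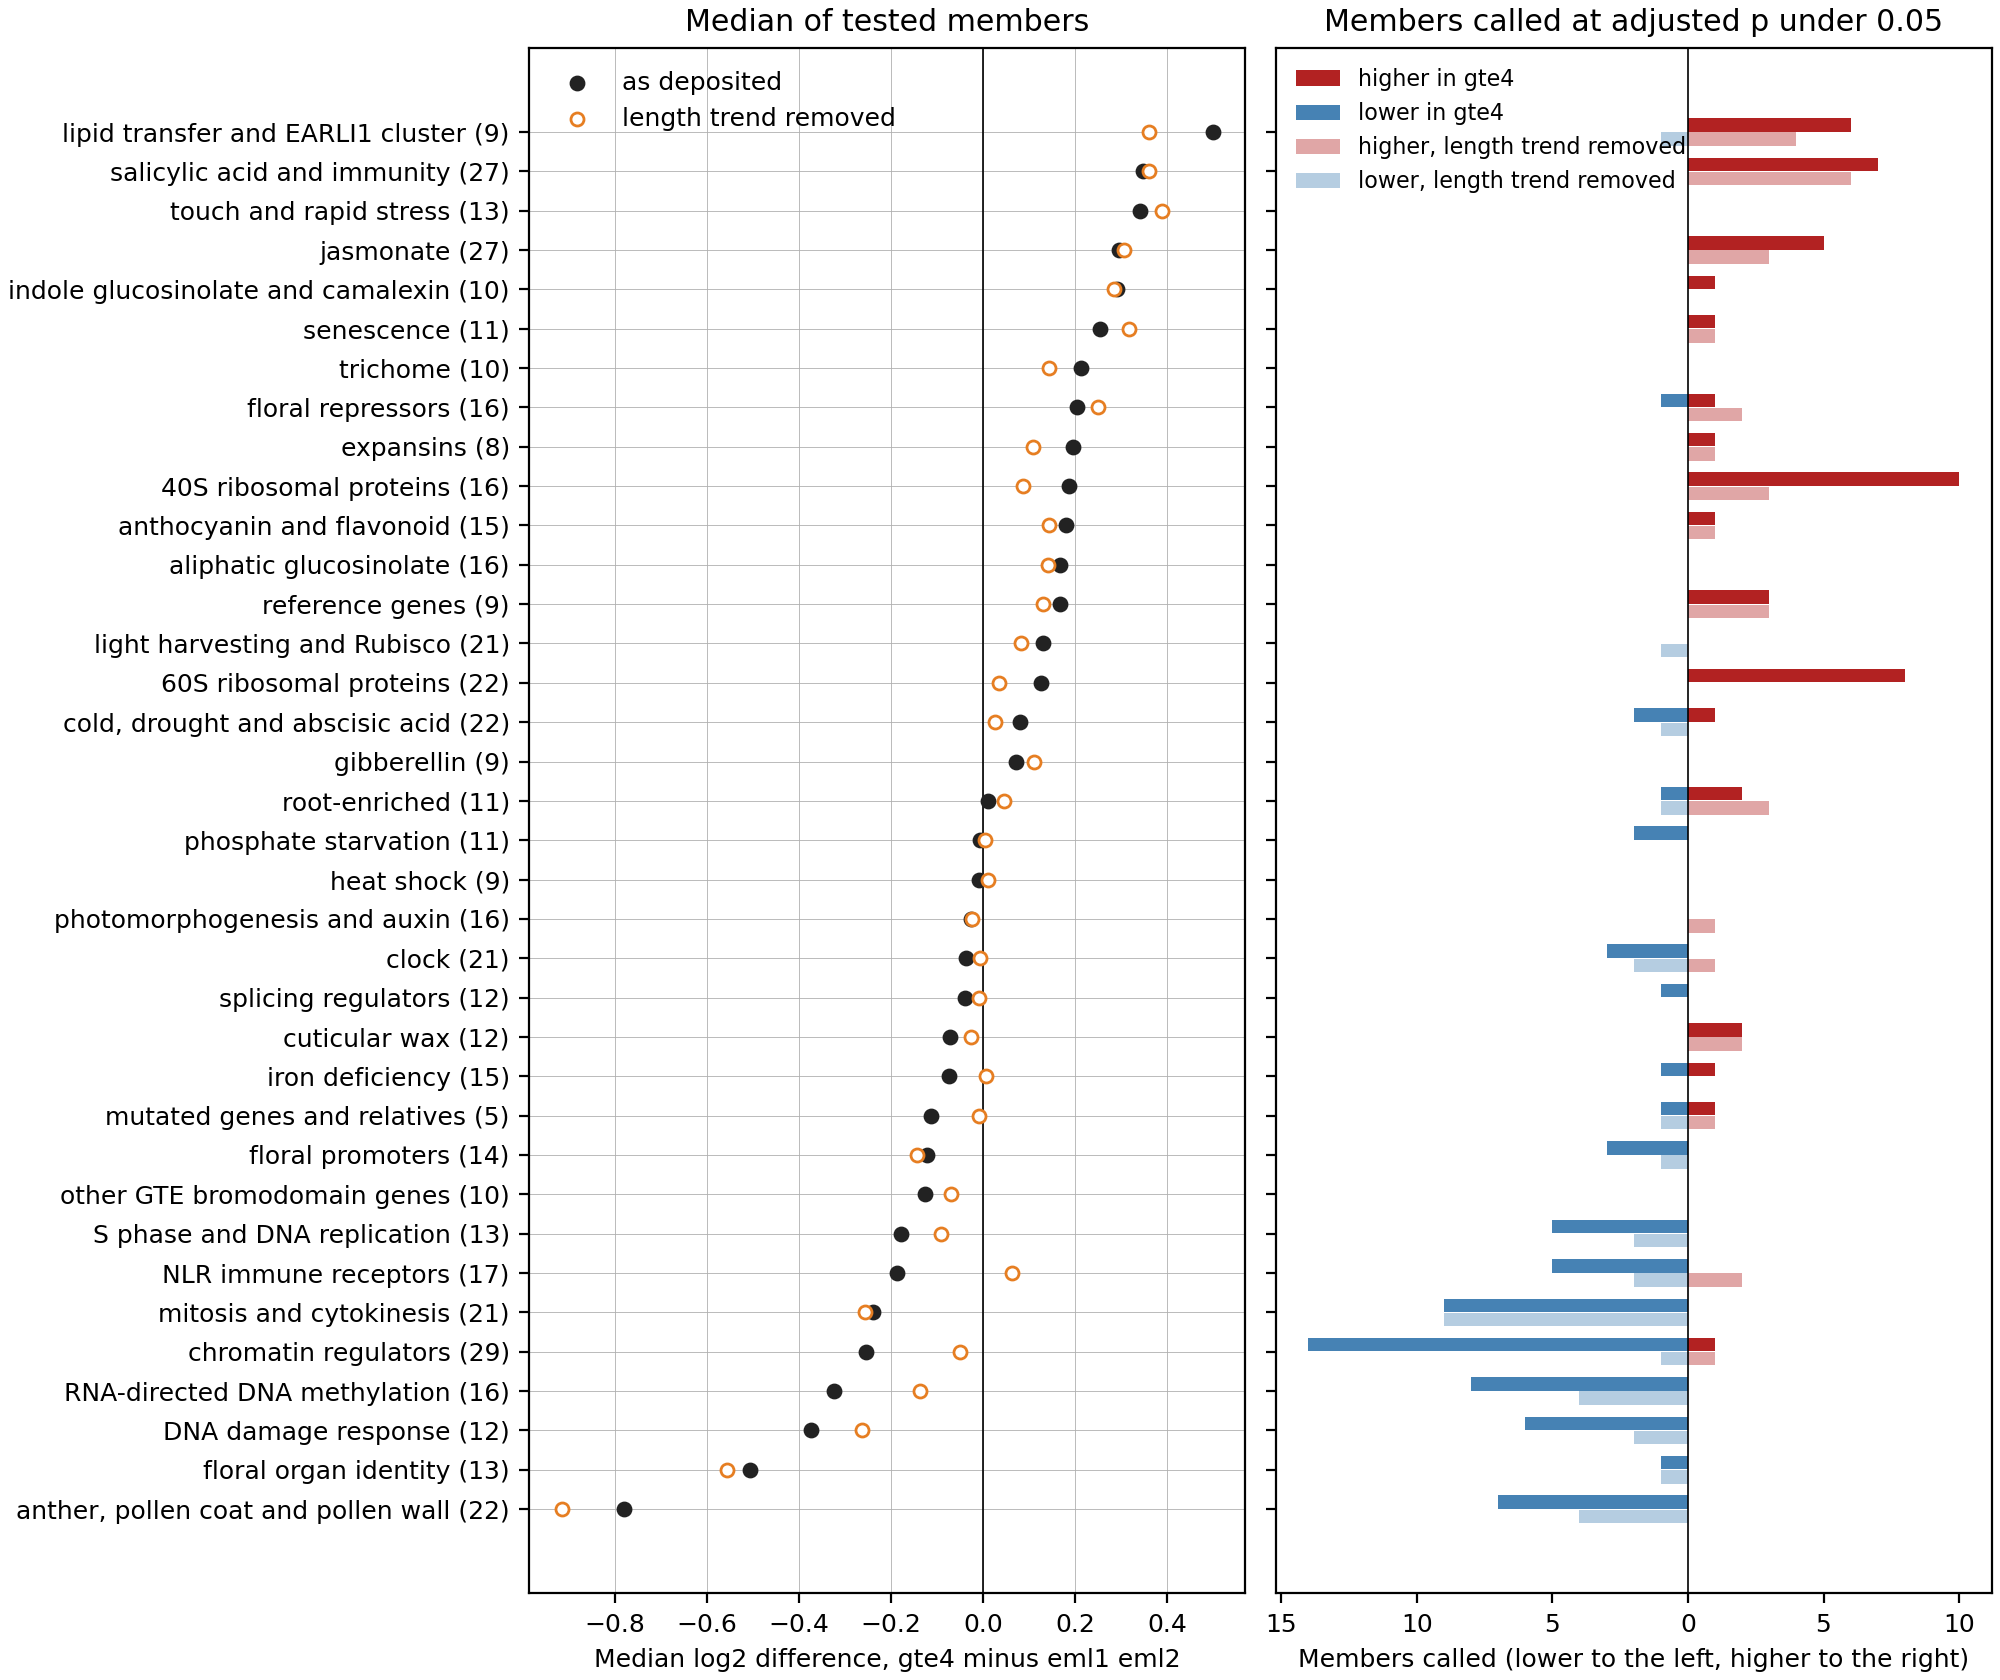
Left, median log2 difference, gte4 minus eml1 eml2 (x axis), of each gene list with its number of tested members, as deposited (filled) and with the length trend removed (open). Right, members called higher (red, to the right) and lower (blue, to the left), pale for the fit with the trend removed; the chromatin list has 14 lower as deposited and 1 with the trend removed, and the mitosis list 9 and 9, which becomes 5 and 1 without gte4 replicate 2.

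Wild type and the triple mutant were placed beside the 1160 genes called in both fits, as a description. Their mean log2 values as deposited were used, with the length trend still in them. Of the 575 genes higher in gte4, wild type was nearer eml1 eml2 for 380 and nearer gte4 for 195, and of the 585 lower it was nearer eml1 eml2 for 325 and nearer gte4 for 260. The triple mutant was nearer eml1 eml2 for 371 of the higher and 363 of the lower genes. It lay between the 2 mutants for 484 of the 575 and 466 of the 585. Wild type lay outside the range of the mutants more often, below both for 198 and above both for 58 of the higher genes, and below both for 121 and above both for 169 of the lower. The members were chosen by the difference between the mutants, which by itself places another genotype between them often, so these counts carry no test. They were not made over all genes tested. The length trend of the triple mutant (0.09, 0.18 and 0.09) had the sign of that in eml1 eml2 (0.16, 0.11 and 0.11). In gte4 it was -0.21, -0.26 and -0.06, and the part of this trend in the counts was not tested.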

How the data were processed

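RNA of 12 libraries (4 genotypes, 3 each) was sequenced with paired 150-base reads. Per the submitters' processing notes, bcl2fastq, HISAT2 and edgeR were used with TAIR10; versions, the counting program, annotation and strand are not given in the sources used here. The deposited table holds a normalized signal, read counts scaled by the authors and not whole, and whole reads could not be recovered, so the precision that depth gives is unknown and limma was used in place of the count test named beside it in the design. Values were log2 transformed after adding 1, and genes with a mean of at least 1 were kept. limma 3.58.1 (R 4.3.3) was run on all 12 libraries with a coefficient for each of the 4 genotypes, with trend and robust moderation, and the contrast gte4 minus eml1 eml2 was adjusted by Benjamini-Hochberg over 22315 genes. Exon lengths and names come from RefSeq (TAIR10.1), in which all 32548 gene IDs were found; since the build names differ, no coordinates are given. For the length correction, a natural spline (5 degrees of freedom) on log2 exon length was fitted in each library to genes with a mean of at least 50 and subtracted.

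The comparison, the 38 gene lists (568 members, after 15 were left out whose symbol the annotation did not carry) and the tests were chosen with earlier results of these data known. Genes are named by a rule: the 12 largest differences each way among genes called in both fits, without overlap and with a mean of at least 50 in the higher group; at most 4 called genes from a list; and GTE4 and EML1 to EML4. Other list members in the text were chosen after their values were seen. The labels do not say what the replicate numbers share. Deviations of same-numbered gte4 and eml1 eml2 libraries from their group means correlated at 0.533, 0.177 and 0.624 over genes with a mean of at least 50, and at 0.129, 0.014 and 0.190 over all genes tested. From the first of these, and with both fits known, the numbers were taken to pair the libraries. The fit without a block is the main one, as planned, and blocked counts and calls are given where they differ by over 1.5 times or cross the threshold. Alternatives were other pseudocounts, filters, scaling, moderation, samples, the length correction, a replicate block and leaving out each library; the length-corrected fit repeated under these was added after the data were seen. The steps were tested on simulated data.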

Additional observations from a re-analysis of the deposited data

How the results depend on the processing

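The count of 3019 called genes was 2694 to 3094 with a pseudocount of 0.5 or 5, other filters on low values, only the 6 libraries compared or other scaling. It was 1496 with the length trend removed and 1491 without trend and robust moderation, and 875 to 3719 with a library left out. Genes higher in gte4 numbered 1287, and 787 with equal totals, 831 with the length trend removed, 626 without trend and robust moderation and 399 to 1686 with a library left out. Genes lower numbered 1732, and 665, 865 and 476 to 2033 under the last 3 of these. Calls of at least 1 on the log2 scale numbered 175, and 112 at a minimum mean of 10, 108 with the length trend removed and 73 to 215 with a library left out. The count with the length trend removed ran from 298 to 1964 with a library left out. The direction of the differences reversed with the length trend removed, with and without the block, for SYD (0.021) and PHO2 (0.0053, from -0.23), neither then called. Of 97 named genes with a call, 40 kept it under all 18 alternatives, 60 with the length trend removed and 48 without gte4 replicate 2; calls of GTE4 and EML2 held throughout.

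With a replicate block 4250 genes were called (1926 higher, 2324 lower), and 2884 with the length trend also removed (1645 and 1239); 3006 of the 3019 and 1493 of the 1496 calls were shared with these fits. None of the 97 named calls was lost with the block alone. Over genes with a mean of at least 50, eml1 eml2 replicate 2 correlated more with gte4 replicate 1 (0.217) than with replicate 2.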

Other observations

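The genes beside the mutated loci were looked at after the values were seen. The 5 tested genes next in order on either side of GTE4, EML2 and EML1 were taken. Among these AT1G06265 near GTE4 was called as deposited, where 13.5% of all genes were. It stood at a mean of 31.6 normalized counts in gte4, 63.6 in eml1 eml2 and 48.1 in wild type (log2 difference -0.995, adjusted p = 0.00446 by limma). Near EML1, AT3G12170 was called with the length trend removed (adjusted p = 0.0337) and not as deposited (adjusted p = 0.0791). The other neighbours that were tested were not called in either fit.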
